A study of Mus musculus with 8 samples.

Results

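The Hoxb cluster is the row of 10 Hoxb genes on mouse chromosome 11, from Hoxb13 at the lower-coordinate end to Hoxb1 at the other. It was examined in maps of H2AK119ub, histone H2A monoubiquitinated at a lysine of its C-terminal tail, made by chromatin immunoprecipitation and sequencing (ChIP-seq). The members were the Hoxb genes of the RefSeq annotation, 10 of 21883 protein-coding genes. All peaks from 40 kb before the first gene to 40 kb after the last were taken, a window of 253.9 kb (chr11:96154316-96408254, mm10). It held 6 of 2541 Eed cKO peaks and 7 of 4621 control peaks.

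The cells were basal epidermal progenitors from the back skin of newborn mice at postnatal day 0, sorted as positive for EpCAM and Sca1 and high for α6-integrin, with the same number of cells in each immunoprecipitation. One genotype, Eed cKO, is labelled Eed-/- and lacks Eed, which Polycomb repressive complex 2 (PRC2) needs for its activity. Its counterpart is labelled Control. Each genotype had 2 H2AK119ub libraries and 1 input library, and each was deposited as 1 peak list. A further genotype, Ring1a-/- Ring1b-/-, with 1 H2AK119ub library and 1 input, was not analysed here. The labels name neither the Cre driver of the deletion nor the animals behind a library, and nothing says whether the 2 libraries of a genotype came from separate animals.

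Hox genes encode homeodomain transcription factors that give cells their position along the body axis. Their order on the chromosome follows the order of their expression domains, with Hoxb1 the most anterior and Hoxb13 the most posterior. Polycomb complexes keep Hox genes silent outside these domains. PRC2 methylates histone H3 at lysine 27, and PRC1 places H2AK119ub. Some forms of PRC1 bind methylated H3, others are brought to CpG-rich DNA without it. Skin is known for a positional Hox code that persists after development, described best in its fibroblasts.

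The lists give the position of each peak and no score, height or p-value, so the measured quantities are positions, widths and covered lengths. With 1 list for each genotype there was no replicate error, and no difference between genotypes could be tested. Positions alone do not give the read depth, so a missing peak cannot be told apart from fewer reads or another call threshold. Over the whole series the Eed cKO list covered 16.6 Mb and the control list 29.0 Mb. The Eed gene itself had no peak at either end in either list, and peak positions do not show its deletion.

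Promoter sequence from RefSeq (GRCm38.p6) was used for 3 of the 10 members, Hoxb8, Hoxb4 and Hoxb1, the ones matched in the promoter table. They differed in the control list, where those of Hoxb8 and Hoxb1 lay wholly inside peaks and that of Hoxb4 lay in none. None of the 3 met an Eed cKO peak. Each runs from 250 bases before to 50 bases after an annotated start on the plus strand. For Hoxb8 this start lies inside the gene span, which begins at 96279401. Capitals mark CG dinucleotides, the sequence feature bound by CpG-reading forms of PRC1.
Hoxb8 promoter, chr11:96281655-96281954: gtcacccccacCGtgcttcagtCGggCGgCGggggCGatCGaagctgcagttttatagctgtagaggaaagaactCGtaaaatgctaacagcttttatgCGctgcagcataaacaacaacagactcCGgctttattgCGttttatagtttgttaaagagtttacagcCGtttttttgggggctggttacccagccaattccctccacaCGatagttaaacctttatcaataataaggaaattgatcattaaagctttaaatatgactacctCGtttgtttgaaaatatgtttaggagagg
Hoxb4 promoter, chr11:96318017-96318316: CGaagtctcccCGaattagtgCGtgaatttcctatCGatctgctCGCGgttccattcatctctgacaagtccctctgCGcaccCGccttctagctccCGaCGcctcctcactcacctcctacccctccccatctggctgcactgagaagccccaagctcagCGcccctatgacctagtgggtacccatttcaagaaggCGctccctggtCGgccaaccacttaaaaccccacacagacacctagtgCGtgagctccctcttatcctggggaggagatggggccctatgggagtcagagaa
Hoxb1 promoter, chr11:96365508-96365807: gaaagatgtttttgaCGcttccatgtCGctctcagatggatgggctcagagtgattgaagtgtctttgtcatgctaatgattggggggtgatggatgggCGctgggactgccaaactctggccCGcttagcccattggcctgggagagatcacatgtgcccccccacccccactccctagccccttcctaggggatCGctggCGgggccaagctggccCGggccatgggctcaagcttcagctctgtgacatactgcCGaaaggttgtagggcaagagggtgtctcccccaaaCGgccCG

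The Hoxb8 promoter held 13 CG dinucleotides, the Hoxb4 promoter 14 and the Hoxb1 promoter 10. The motif searched was CG, which reads the same on both strands. It occurred in 95.4% of 21262 promoters of protein-coding genes, with a median of 13. Of these promoters, 49.1% had fewer than the Hoxb8 promoter, 51.1% fewer than the Hoxb4 promoter and 43.3% fewer than the Hoxb1 promoter. Thus the 3 lay near the middle of all promoters, and the unmarked Hoxb4 promoter had the most. Set against base composition, the ratio of observed to expected CG was 0.97 for Hoxb8, 0.59 for Hoxb4 and 0.38 for Hoxb1, and the median over all promoters was 0.57. Promoters under a peak in both lists had a median of 21 CG dinucleotides, those under an Eed cKO peak alone 20.5, those under a control peak alone 19 and those under no peak 12.

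The window also holds a pair of miRNA genes, shown with their more familiar mature product and with the seed, bases 2 to 8, in capitals. They are given because 1 lies at the edge of an Eed cKO peak and the other lies in the unmarked part of the cluster. Neither seed is shared with the other.
miR-196a-5p from Mir196a-1, chr11:96265187-96265208, plus strand: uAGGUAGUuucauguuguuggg
miR-10a-5p from Mir10a, chr11:96317186-96317208, plus strand: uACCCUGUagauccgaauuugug

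H2AK119ub peaks covered 38.5 kb of the window in Eed cKO and 119.9 kb in control, or 15.2% and 47.2% of its length. Of the control-covered length, 29.9 kb (25.0%) was also covered in Eed cKO, against 36.8% over the whole lists. A length of 90.0 kb was covered in control alone, and 8.53 kb in Eed cKO alone. Most of the sequence covered in Eed cKO lay inside control peaks, 77.8% of it in the window against 64.2% over the whole lists. Of the 6 Eed cKO peaks 5 met a control peak, and over the whole list 70.1% did. Of the 7 control peaks 4 met an Eed cKO peak, where the whole list had 37.9%.

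**Figure D1:**
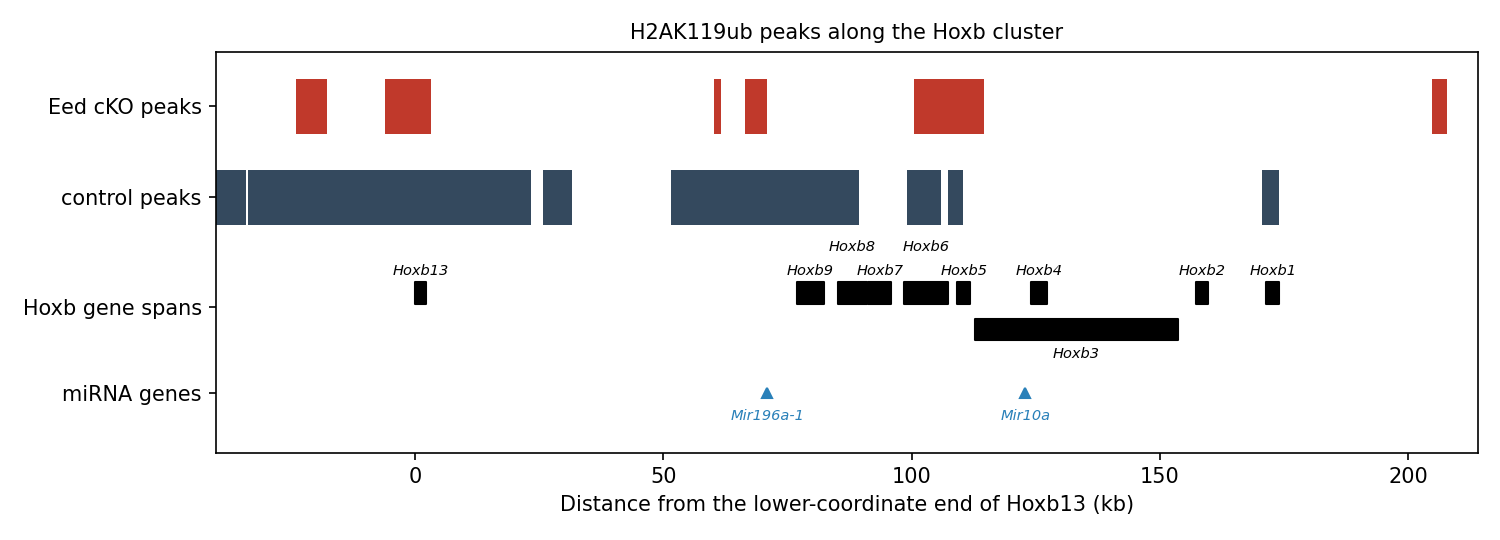
H2AK119ub peaks of the Eed cKO list (upper row) and the control list (second row) over the Hoxb window, with the spans of the 10 Hoxb genes and the positions of 2 miRNA genes below. The x axis is the distance in kb from the lower-coordinate end of Hoxb13. The widest Eed cKO peak, 14.0 kb, lies over Hoxb6, Hoxb5 and the start of the Hoxb3 span. The widest control peak, 57.0 kb, lies around Hoxb13, and no control peak falls in the 60.2 kb between Hoxb5 and Hoxb1.

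Along the cluster the marked and unmarked genes fell into blocks. A gene was called marked when a peak reached within 2000 bp of either end of its span by at least 1 bp. Of the 10 members 4 were marked in Eed cKO (Wilson 95% interval 16.8 to 68.7%), where 7.4% of all protein-coding genes were. In control 7 of 10 were marked (39.7 to 89.2%), where 11.7% of all genes were. These intervals cover counting error only, and members share peaks. The 3 members Hoxb13, Hoxb6 and Hoxb5 were marked in both lists, as were 5.71% of all genes. Hoxb5 was not marked in control if only the 2541 widest control peaks were kept, nor Hoxb6 in Eed cKO if only the lower-coordinate gene end counted. Hoxb9, Hoxb8, Hoxb7 and Hoxb1 carried a mark in control alone, and Hoxb3 in Eed cKO alone. Hoxb4 and Hoxb2 were marked in neither. Among the control-marked members, 3 of 7 (42.9%, 15.8 to 75.0) had a mark in Eed cKO too, near the 49.0% of all control-marked genes. Conversely 3 of the 4 members marked in Eed cKO had one in control, near the 77.1% of all such genes. Marks in control alone were found at 5.95% of all genes, and in Eed cKO alone at 1.7%.

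**Figure D2:**
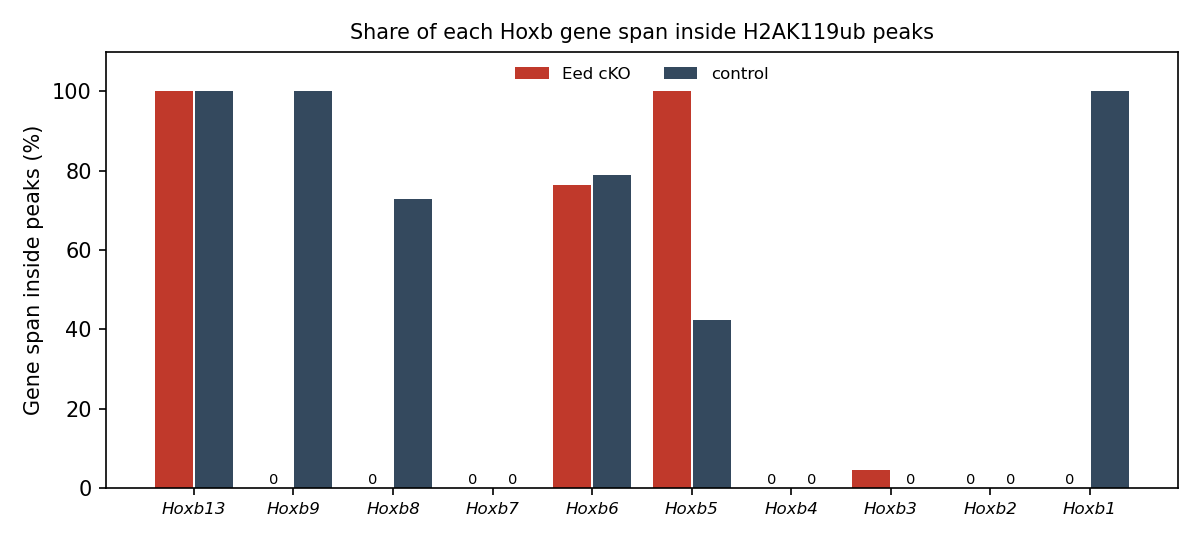
Share of each Hoxb gene span inside H2AK119ub peaks (%), in Eed cKO (left bar) and control (right bar), in chromosomal order from Hoxb13. A 0 marks a span with no covered base, and there is 1 list per genotype and so no error bar. Hoxb13 is covered to 100% in both lists, Hoxb9 and Hoxb1 to 0% in Eed cKO and 100% in control, and Hoxb5 to 100% in Eed cKO and 42.2% in control.

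Hoxb13, the most posterior member and known for its roles in the tail and the prostate, had a peak over its whole span in both lists. In Eed cKO this was a 9.26 kb peak (chr11:96188377-96197633), which began 5.94 kb before the span and ended 1.02 kb beyond it. In control the span lay in a 57.0 kb peak (chr11:96160600-96217615), the 7th widest of that list. The control peak reached 33.7 kb to the lower-coordinate side of Hoxb13 and 21.0 kb to the other side. The Eed cKO peak therefore lay inside it, and the sequence it left uncovered stretched away from the gene on both sides. A second Eed cKO peak, 6.24 kb wide and 17.7 kb from Hoxb13, also lay inside the same control peak. Together both peaks covered 27.2% of it.

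The 40 kb beyond Hoxb13 were almost filled with peaks in control and sparsely marked in Eed cKO. Peaks covered 12.2 kb of this flank in Eed cKO and 39.6 kb in control, or 30.4% and 99.0%. All 12.2 kb lay inside control peaks. The flank includes the end of Ttll6, a tubulin polyglutamylase gene and the nearest protein-coding neighbour on that side. Ttll6 had no Eed cKO peak within its span, the nearest being 4.22 kb away, while control peaks covered 67.6% of its span. The control peaks over it included the end of the 57.0 kb peak and, 390 bp away, a 6.91 kb peak that no Eed cKO peak met.

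The stretch between Hoxb13 and Hoxb9, 74.7 kb without a protein-coding gene, was the part of the cluster with the most control-covered sequence missing in Eed cKO. Peaks covered 7.08 kb of it in Eed cKO and 52.2 kb in control. In Eed cKO a gap of 56.8 kb followed the Hoxb13 peak, and then came small peaks of 1.53 and 4.53 kb. Both lay inside a 37.9 kb control peak (chr11:96245827-96283705), the 41st widest of that list, and covered 16.0% of it. A 5.69 kb control peak in the same stretch, 23.5 kb from Hoxb13, met no Eed cKO peak, and the nearest lay 22.5 kb away.

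Mir196a-1 sits in this stretch. Its product miR-196a is known to target Hoxb8 mRNA. The 4.53 kb Eed cKO peak, as listed, ended inside the hairpin and covered 40 of its 102 bp, including 17 of the 22 bases of miR-196a-5p. How peaks were called is not given, so this edge cannot be taken as exact to the base. In control the 37.9 kb peak covered the whole hairpin. Mir196a-2, on chromosome 15, encodes the same mature miR-196a-5p sequence, and its hairpin of 85 bp lay wholly inside a peak in both lists. The lncRNA genes Gm53 and Gm51876, named after their values were seen, were covered to 41.7% and 8.62% in Eed cKO and to 100% each in control. Gm30134 and Gm11538, lncRNA genes of the same stretch, were covered to 0% in Eed cKO and to 100% each in control. The lncRNA gene Hoxb3os, which overlaps Hoxb3 and Hoxb2, was covered to 0% in both lists.

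Hoxb9, Hoxb8 and Hoxb7, neighbours known for roles in the thoracic part of the body axis, had no Eed cKO peak. They lay together in a 29.7 kb gap between Eed cKO peaks. The distance to the nearest Eed cKO peak was 6.13 kb for Hoxb9, 9.56 kb for Hoxb8 and 4.72 kb for Hoxb7. In control the 37.9 kb peak ran over all of Hoxb9, including both ends, and stopped inside Hoxb8, covering 72.7% of its span. The Hoxb8 promoter printed above lay inside that peak.

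Hoxb7 was marked in control by the edge of the same peak alone. No base of its span was covered in either list. The control peak ended 1898 bp before it, so that 102 bp of peak fell in the window at its lower-coordinate end. With windows of 1000 bp, or with an overlap of at least 500 bp required, Hoxb7 was unmarked in control and 6 of 10 members were marked. Its place among the genes marked in control alone therefore rested on the chosen window.

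Hoxb6 and Hoxb5, genes of the middle of the cluster that act in the trunk, limbs, blood and gut, carried the widest Eed cKO peak of the window. It was 14.0 kb wide (chr11:96294887-96308900), wider than 92.7% of the Eed cKO list. It covered 76.3% of the Hoxb6 span and all of Hoxb5. In control these genes lay under separate peaks, 6.91 kb at Hoxb6 and 2.98 kb at Hoxb5, with 1.33 kb between them. The control peaks covered 78.9% of Hoxb6 and 42.2% of Hoxb5. Hoxb5 was thus the member whose covered share was higher in Eed cKO by the most, with 2.61 kb covered in Eed cKO and 1.10 kb in control.

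This Eed cKO peak joined the 2 control peaks and ran past them. It began 1.49 kb after the start of the Hoxb6 control peak, covered 78.4% of that peak and the whole of the Hoxb5 control peak, and ended 4.29 kb beyond the end of that one. In all 5.62 kb of it lay outside control peaks. Over the whole list 95 of 2541 Eed cKO peaks (3.74%) met at least 2 control peaks, and 105 of 4621 control peaks (2.27%) met at least 2 Eed cKO peaks. Both wide control peaks of the Hoxb window were among the 105. Across Hoxb6 to Hoxb5, peaks covered 84.4% of the sequence in Eed cKO and 74.3% in control. Across Hoxb9 to Hoxb7 they covered 0% in Eed cKO and 65.7% in control. Hoxb5os, a lncRNA gene that overlaps Hoxb6 and Hoxb5 and was named after its values were seen, was covered to 75.7% in Eed cKO and 62.3% in control.

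Hoxb3 and Hoxb4, anterior genes with known roles in the hindbrain and in blood stem cells, had no control peak at either end. Hoxb3 was reached in Eed cKO by the 14.0 kb peak, which entered the lower-coordinate end of its 40.8 kb span by 1.80 kb (4.41%). In control the nearest peak lay 2.49 kb before Hoxb3. With windows of 5000 bp Hoxb3 counted as marked in both lists. Hoxb4, which lies inside the Hoxb3 span, was 9.37 kb from the nearest Eed cKO peak and 13.7 kb from the nearest control peak. Mir10a, next to Hoxb4, had no peak in either list, with 8.26 kb to the nearest in Eed cKO and 12.6 kb in control.

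Hoxb2, a hindbrain patterning gene, likewise had no peak in either list. Its distance to the nearest peak was 42.7 kb in Eed cKO and 10.8 kb in control. From Hoxb3 to Hoxb2, a stretch of 46.9 kb, peaks covered 1.80 kb in Eed cKO and 0 kb in control. This was the longest unmarked part of the cluster in control, a gap of 60.2 kb between successive peaks. The matching gap in Eed cKO was 90.3 kb and held Hoxb4, Hoxb2 and Hoxb1 whole.

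Hoxb1, the most anterior member and a determinant of hindbrain segment identity, stood apart from its unmarked neighbours in control. A control peak of 3.54 kb (chr11:96364805-96368347) covered the whole gene and little else, starting 0.941 kb before the span and ending 0.093 kb after it. No Eed cKO peak met it, and the nearest lay 30.8 kb away. This control peak was of modest width, wider than 39.4% of its list, and Hoxb1 was unmarked if only the 2541 widest control peaks were kept.

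Beyond Hoxb1 the only peak lying wholly in the flank belonged to Eed cKO. It was 2.91 kb wide (chr11:96399176-96402081), lay 30.9 kb from Hoxb1 and 14.8 kb from the nearest control peak, and overlapped no annotated gene. It was narrower than most of its list, 21.3% of whose peaks were narrower still. The width minimum of the stricter list removed it, together with the 1.53 kb peak between Hoxb13 and Hoxb9.

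Both wide control peaks of the cluster were set beside control peaks of like width elsewhere. The 57.0 kb peak around Hoxb13 was covered to 27.2% in Eed cKO. The 94 control peaks outside the window that were within 2 times its width had a median covered share of 50.1%. Of these 24 were covered less than the Hoxb13 peak, and 11 of the 24 were not covered at all. The 37.9 kb peak at Hoxb9 and Hoxb8 was covered to 16.0%. Its 221 counterparts had a median of 47.0%, and 46 of them were covered less, of which 42 were not covered at all. The domains nearest to the Hoxb13 peak in covered share were at Pou3f3 (43.3 kb, 29.4%), Prdm8 (31.1 kb, 23.8%), Hand2 (56.7 kb, 31.3%) and Pax3 with Gm2102 (61.7 kb, 31.3%). The fifth was a 30.6 kb peak on chromosome 7 with no protein-coding gene, covered to 22.8%.

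**Figure D3:**
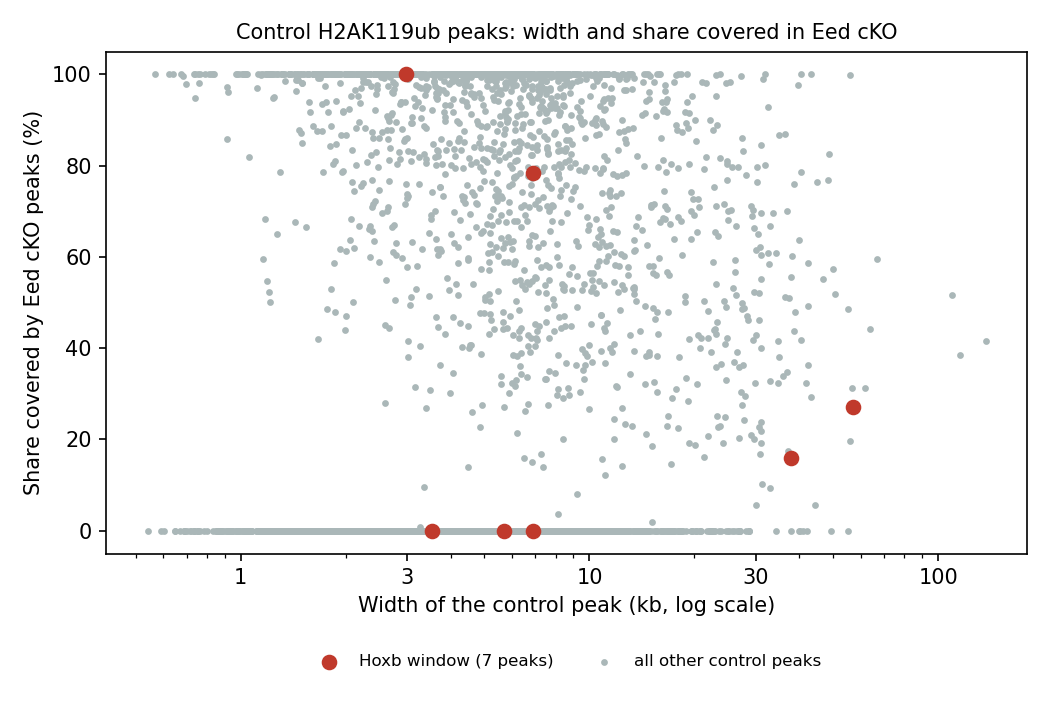
Share of each control H2AK119ub peak covered by Eed cKO peaks (%), against the width of the control peak in kb on a log axis. Large points are the 7 control peaks of the Hoxb window and small points all other control peaks. The 2 widest Hoxb peaks, 57.0 and 37.9 kb, lie at 27.2% and 16.0%, the peaks at Hoxb5 and Hoxb6 at 100% and 78.4%, and the other 3 at 0%.

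The other Hox clusters, taken with the same flanks, set these values in context. In the Hoxb window 25.0% of the control-covered length was also covered in Eed cKO, where the Hoxa window had 42.5%, the Hoxc window 35.9% and the Hoxd window 41.6%. The length covered in Eed cKO alone was 8.53 kb for Hoxb, 4.07 kb for Hoxa, 2.73 kb for Hoxc and 0 kb for Hoxd. Hoxb had the lowest share and the greatest length of these. Its window is also the longest, which bears on the length, and no test of either difference was possible. The share was uneven along the Hoxb window. It was 30.7% in the flank beyond Hoxb13, 100% over the Hoxb13 span, 13.6% between Hoxb13 and Hoxb9 and 32.6% from Hoxb9 to Hoxb1. Such parts were not compared with parts of the other clusters. The widest control peak in the Hoxb window was 57.0 kb, where the other windows reached 109.3, 115.1 and 136.8 kb for Hoxa, Hoxc and Hoxd.

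**Figure D4:**
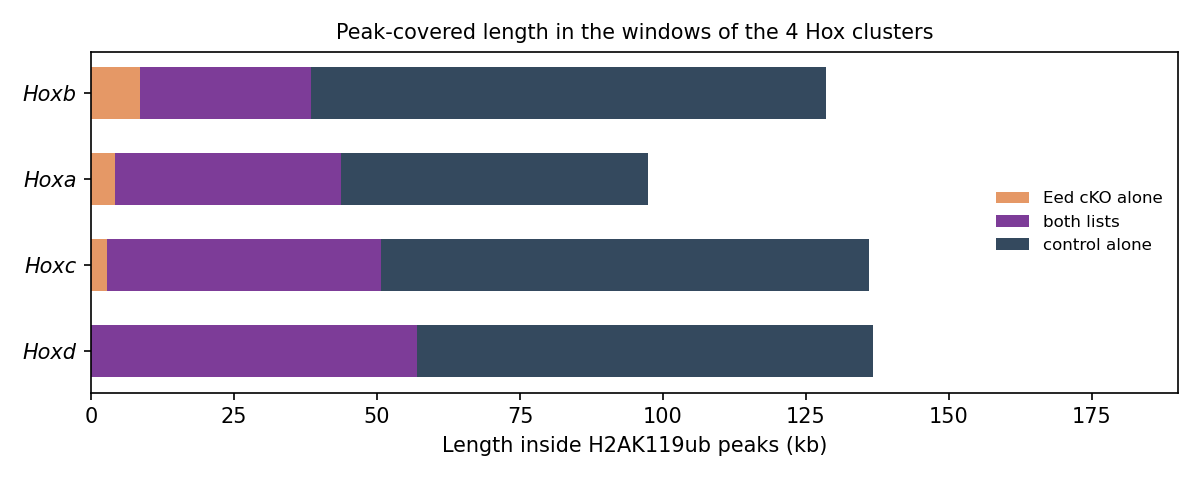
Length inside H2AK119ub peaks (kb) in the windows of the Hoxb, Hoxa, Hoxc and Hoxd clusters, split into Eed cKO alone, both lists and control alone. For Hoxb these lengths are 8.53, 29.9 and 90.0 kb, with 1 list per genotype and no error bar.

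Gene by gene, 3 of 7 control-marked Hoxb genes were marked in Eed cKO too. For the other Hox genes this was 20 of 25, and for all control-marked genes 49.0%. The 7 include Hoxb7, marked in control by the edge of a peak alone. Of the 29 other Hox genes 22 were marked in Eed cKO and 25 in control. Over all protein-coding genes 7.4% were marked in Eed cKO, 11.7% in control and 5.71% in both. Of the paralogues of Hoxb5 and Hoxb6, namely Hoxa5, Hoxc5, Hoxa6 and Hoxc6, all 4 were marked in both lists, as were Hoxa13, Hoxc13 and Hoxd13, the paralogues of Hoxb13. The paralogues of Hoxb7 to Hoxb9 were mixed. Hoxa7, Hoxd8 and Hoxd9 were marked in control alone, while Hoxc8, Hoxa9 and Hoxc9 were marked in both lists.

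Among anterior paralogues Hoxa2 was marked in neither list and Hoxa3 in control alone. Hoxd1, Hoxd3 and Hoxd4 were marked in both, and Hoxa4 and Hoxc4 in Eed cKO alone. In paralogue groups 1 to 4, 1 of 4 Hoxb genes was marked in Eed cKO and 1 of 4 in control. Of the other Hox genes of these groups 5 of 8 were marked in Eed cKO and 4 of 8 in control. In groups 5 to 9, 2 of 5 Hoxb genes were marked in Eed cKO and 5 of 5 in control. The 5 include Hoxb7, marked by the edge of a peak alone. The other Hox genes of these groups had 7 of 10 in Eed cKO and 10 of 10 in control. The shares over all protein-coding genes were 7.4% in Eed cKO and 11.7% in control. Genes of a cluster share peaks and lists, so these counts are descriptions.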

How the data were processed

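H2AK119ub was profiled in 8 libraries of sorted epidermal progenitors, and the data analysed here were the 2 peak lists the authors deposited. Per the file headers each list gives chromosome, start and end, and per the submitters' processing notes the build is mm10 and Bowtie2 2.3.3.1 and SAMtools 1.9 were used. How peaks were called, at which threshold, with which input and on which library or pool is, in the sources used here, not given. Starts were raised by 1 so that positions count from 1.

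Genes were taken from RefSeq coordinates of GRCm38.p6, the assembly also called mm10, on chromosomes 1 to 19, X and Y. The gene table gives no strand, so both gene ends were used. The members and lists were chosen with earlier results of these data known. By rule the text names the 10 members, the protein-coding and miRNA genes of the window, same-numbered Hox paralogues and the 5 control peaks nearest in covered share to the widest one of the window. It also names Eed, the members of the cofactor, regulator and cell type marker lists and the lncRNA genes of the window. Some genes of the rule and lists are not reported individually. No genotype test was possible with 1 list each, so the replicate libraries give no error here. Alternatives changed the lists, windows, overlap and flanks. The interval functions were tested on simulated data. Intervals came from scipy 1.17.1, tables from pandas 2.3.3 and plots from matplotlib 3.10.9, under Python 3.11.15.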

Additional observations from a re-analysis of the deposited data

How the results depend on the processing

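Of 49 values under other settings, 47 stayed within a set limit. The limit was a ratio of 1.5 between the larger and the smaller of the reported and the other value, in either direction. For the share of control-covered length it was a Wilson interval over its 120 bins of 1000 bp. Neighbouring bins share peaks and are not independent, so that interval is a yardstick and not an error. Eed cKO values could not change where only the control list was trimmed. The limit also passed sizeable shifts in small counts, as from 7 to 5 control-marked members or from 6 to 4 Eed cKO peaks. A fall from 3 to 2 members marked in both lists passed as well. With windows of 5000 bp at both ends, 5 members were marked in both lists in place of 3, because Hoxb7 and Hoxb3 were reached in both. Without flanks, the Eed cKO peaks covered 23.4 kb in place of 38.5 kb, by construction of the shorter window. The 25.0% of control-covered length also covered in Eed cKO ranged from 22.2% to 26.0%. With the control list trimmed to 2541 peaks of at least 3954 bp, Hoxb5 and Hoxb1 were no longer marked in control. With the lower-coordinate end alone, a setting added after the data were seen, Hoxb6 was no longer marked in Eed cKO. That end is the 5′ end of the span for the 3 members with a stated strand. For Hoxb8 it is not the start behind the printed promoter, which lies inside the span. The planned setting with the 5′ end alone was not run for the other members, for which no strand was used here. No paired analysis was possible because each genotype has 1 list, which does not give its libraries separately. Depth and peak strength were unknown, so no limit from depth could be set.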

Other observations

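Genes that act with Hox proteins or upstream of them were also examined. Of the 9 TALE homeodomain cofactor genes, which encode DNA-binding partners of Hox proteins, 0 were marked in Eed cKO and 3 in control, namely Meis1, Meis2 and Pknox2. Of 10 genes of retinoic acid signalling and the Cdx family, which regulate Hox expression in embryos, 6 were marked in Eed cKO and 6 in control. The retinoic acid-degrading enzyme genes Cyp26a1, Cyp26b1 and Cyp26c1 were marked in both lists, as were Cdx1 and Cdx2. Aldh1a2, which encodes a retinoic acid-synthesising enzyme, was marked in control alone, and Rara, a retinoic acid receptor gene, in Eed cKO alone. Rarb, Rarg and Cdx4 were marked in neither. Over all protein-coding genes 7.4% were marked in Eed cKO and 11.7% in control.

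Of the 6 basal keratinocyte markers Krt5, Krt14, Trp63, Itga6, Itgb1 and Col17a1, 0 were marked in either list. The same held for the 4 leukocyte markers. Of all protein-coding genes 7.4% were marked in Eed cKO, 11.7% in control and 5.71% in both. A count of 0 in lists this short is therefore not informative. Of 5 Merkel cell markers 4 were marked in both lists. Of 4 suprabasal markers Krt1 was marked in both lists and Krt10 in control alone. Of 4 fibroblast markers Twist2 was marked in both lists and Pdgfra in control alone. Sox10, of 5 melanocyte markers, and Kdr, of 3 endothelial markers, were marked in control alone. A peak of this mark does not measure expression, so these counts do not check the identity of the sorted cells.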
